A study of Penicillium oxalicum with 9 samples.

Results

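The genes described here are 85 genes of the filamentous fungus Penicillium oxalicum that were expressed at higher levels in each of a pair of deletion mutants than in their common background strain. They were chosen by the measured values themselves. Expression was measured by RNA-sequencing as FPKM, the number of sequenced fragments per length of a gene's exons and per number of fragments mapped in that library, and FPKM were divided by a scaling factor for each library, which gives scaled FPKM. A member had an FPKM of at least 5 in all 6 mutant libraries and a mean scaled FPKM at least 2 times that of the background strain in both mutants. Of the 9822 annotated genes, 7048 had an FPKM of at least 5 in all 6 mutant libraries. A physically clustered set of genes and a few single genes were left out beforehand, and 7 of these also passed both thresholds. Without the FPKM minimum, 451 annotated genes had a ratio of at least 2 in both mutants.

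Libraries came from 3 strains of P. oxalicum HP7-1, with 3 biological replicates each. The background strain, Δku70 (labelled PoxKu70 WT), has its ku70 gene replaced by the hygromycin marker hph, and both mutants carry that same replacement. Δprmt3 (labelled POX03070 knockout) additionally lacks the arginine methyltransferase gene prmt3, and ΔcxrA (labelled PoxCxrA knockout) lacks the transcription factor gene cxrA. In each mutant the deleted gene was replaced by a G418 resistance marker that Δku70 lacks, so an effect common to the marker or to a further transformation and an effect common to both deletions cannot be told apart. All strains were cultured at 28 °C, first on 1% glucose (24 h) and, after transfer of the mycelium, on 2% Avicel (24 h), which is a microcrystalline form of cellulose. Both mutants were set against the same 3 Δku70 libraries, so a low value in 1 of them raises the ratio in both mutants.

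As background, fungi that live on plant litter secrete enzymes that cut cellulose, xylan, pectin and arabinan into sugars, and transcription factors switch these enzyme genes on and off with the carbon source. CxrA is a zinc-cluster transcription factor known in this species for its part in the expression of cellulase and xylanase genes. Protein arginine methyltransferases attach methyl groups to arginine residues of proteins such as histones, ribosomal proteins and RNA-binding proteins. In the annotation lists that accompany the study, 73 of the 85 members are hypothetical proteins, 7 have an annotated function and 5 have no entry. Most members can therefore be described only by their values and their place among other genes.

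Library sums of FPKM ranged from 1036050 to 1096740, and 9846 to 10270 of 11082 features were above 0 in a library. Scaling factors were 0.909 to 0.964 in Δku70, 0.822 to 0.863 in Δprmt3 and 1.23 to 1.28 in ΔcxrA. The gene given for prmt3, POX_b03080, had a scaled FPKM of 35.1, 27.4 and 30.2 in Δku70 and was listed at 0, 0.0475 and 0 in Δprmt3. The gene whose number stands in the label, POX_b03070, was still expressed there, at 184, 206 and 210.0, below its 736, 670.4 and 869 in Δku70. The gene taken here as cxrA, POX_a00763, was listed at 0 in all 3 ΔcxrA libraries. Regulators of conidium formation differed between the strains. The mean scaled FPKM of brlA (POX_c03558), the central activator of conidiophore development in related fungi, was 155 in Δku70, 5.88 in Δprmt3 and 1.79 in ΔcxrA. Those of abaA (POX_e06958) were 14.2, 5.42 and 18.5 and those of flbD (POX_e07032) 170.0, 71.3 and 8.44, and none of the 3 regulators was at 0 in any library. Their part in the results below was not tested, and in these bulk samples fewer cells of a type and less RNA per cell cannot be told apart.

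The members held a small share of the expression in Δku70 and a much larger one in both mutants. In the Δku70 libraries 0.380%, 0.539% and 0.453% of all FPKM fell on them, in the Δprmt3 libraries 4.87%, 5.13% and 4.94%, and in the ΔcxrA libraries 3.90%, 3.93% and 4.05%. Since the choice of members requires a rise, these shares are a description. Across the members the median scaled FPKM was 15.4 in Δku70, 51.4 in Δprmt3 and 69.8 in ΔcxrA. The same medians over the 7048 genes with an FPKM of at least 5 in the mutants were 44.2, 45.2 and 41.5. For the 84 members with a value above 0 in Δku70, the ratio of means had a median of 3.35 in Δprmt3 and 4.33 in ΔcxrA. Of these, 34 ratios were under 3 in Δprmt3 and 29 in ΔcxrA, and 10 and 11 members reached a ratio of at least 10. Only 5 members reached 10 in both mutants. The ratio was larger in Δprmt3 for 42 members and larger in ΔcxrA for 43, with POX_e07176 counted by its means.

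In 80 members every library of both mutants lay above every Δku70 library. All 85 did so in ΔcxrA, where 35.6% of all features tested did, and 80 in Δprmt3, where 20.2% of all features did. The exceptions in Δprmt3 were POX_a00727, POX_b02749, POX_c03929, POX_c04565 and POX_g08797. In the limma fit over all features, where a call needs a log2 difference beyond 1 in size and an adjusted p below 0.05, 76 members were called higher in Δprmt3 and 80 in ΔcxrA. Of all 10578 features, 3.59% were called higher in Δprmt3 and 16.4% in ΔcxrA. These counts follow from the way the members were chosen and nothing is read from them.

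**Figure D1:**
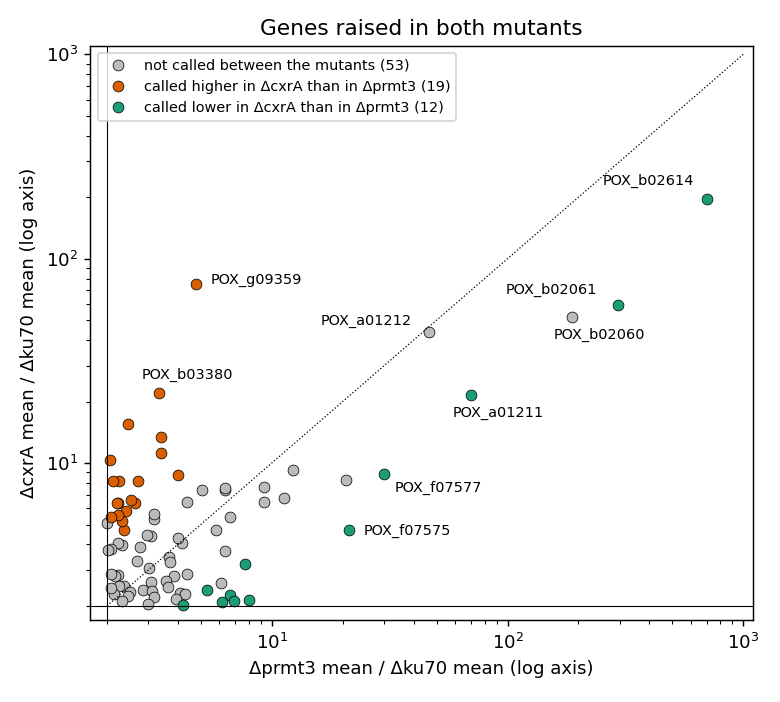
Ratio of mean scaled FPKM to Δku70 in Δprmt3 (horizontal, log axis) and in ΔcxrA (vertical, log axis), 1 point for each of the 84 members with a value above 0 in Δku70. Solid lines mark the ratio of 2 that the choice of members requires, the dotted line marks equal ratios, and colours give the call between the 2 mutants. POX_b02614, POX_b02061 and POX_b02060 stand at the upper right, with ratios of 187 to 705 in Δprmt3, and POX_g09359 stands apart at 75.6 in ΔcxrA and 4.76 in Δprmt3.

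The members nearest the ratio threshold show how fine the choice was. Just inside it stood POX_g08797 and POX_c04256, with ratios of 2.01 and 2.03 in Δprmt3, and POX_e06490, with a ratio of 2.01 in ΔcxrA. Just outside it stood POX_g08654 and POX_e07008, each with a ratio of 1.99 in Δprmt3, and POX_c03788, with a ratio of 1.98 in ΔcxrA. POX_c03788 is highly expressed, at 2346, 3756 and 3530.3 scaled FPKM in Δku70, 13878, 18145 and 17866 in Δprmt3 and 6769, 6739.6 and 5606 in ΔcxrA. Its neighbour POX_c03789 is a member.

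The member with the highest level in Δprmt3 was POX_b02060, a hypothetical protein, while in Δku70 and in ΔcxrA POX_g09001 was higher. The scaled FPKM of POX_b02060 were 14.0, 178 and 137 in Δku70, 20358, 19782 and 21486 in Δprmt3, and 5677, 5731 and 5594 in ΔcxrA. It held rank 4 of all features in each Δprmt3 library and rank 7 or 8 in the ΔcxrA libraries, against ranks from 983 to 6685 in Δku70. The mutant libraries were tight and did not overlap with each other or with Δku70, whereas Δku70 replicate 1 lay far below the other Δku70 libraries. The ratio of means was 187 in Δprmt3 and 51.7 in ΔcxrA, and 131 and 36.0 without Δku70 replicate 1.

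The adjacent gene, POX_b02061, also a hypothetical protein, had the second largest ratio in Δprmt3. Its scaled FPKM were 2.55, 10.5 and 4.79 in Δku70, 1471, 1936 and 1812 in Δprmt3, and 415, 363 and 278 in ΔcxrA. The 3 strains did not overlap, and the ratios of means were 293 in Δprmt3 and 59.3 in ΔcxrA. Without Δku70 replicate 2, the highest of its strain, they were 474 and 95.9. The gene on the other side of POX_b02060, POX_b02059, followed at a level too low to be a member. It rose from a mean of 0.161 scaled FPKM to 4.57 in Δprmt3, and its ΔcxrA libraries were at 2.57, 1.65 and 2.07.

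POX_b02614, a hypothetical protein, had the largest ratio of all members in both mutants. It went from 2.99, 16.9 and 10.9 scaled FPKM in Δku70 to 6754, 7758 and 7147 in Δprmt3 and 2289, 2036 and 1688 in ΔcxrA. The strains were far apart, with ratios of means of 705 in Δprmt3 and 196 in ΔcxrA. Between it and the member POX_b02612 lies a single gene, POX_b02613, that is not a member, with means of 26.3 in Δku70, 41.5 in Δprmt3 and 36.6 in ΔcxrA. POX_b02612 itself had means of 8.17 ± 0.621, 31.9 ± 1.43 and 17.7 ± 1.76 (SD, n = 3) in the same order.

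The pair POX_a01211 and POX_a01212, both hypothetical proteins, completes the members that reached a ratio of 10 in both mutants. POX_a01211 had scaled FPKM of 32.6, 27.7 and 28.0 in Δku70, 1323, 2686 and 2149 in Δprmt3, and 754, 632 and 509.8 in ΔcxrA. POX_a01212 had 3.39, 2.91 and 2.37 in Δku70, 133, 158 and 112 in Δprmt3, and 158, 128 and 92.0 in ΔcxrA. For the first gene the mutants were separate, with ratios of means of 69.7 and 21.5. For the second they overlapped, with ratios of 46.4 and 43.6. The next gene, POX_a01213, is not a member, with means of 13.4 in Δku70, 41.5 in Δprmt3 and 7.44 in ΔcxrA.

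**Figure D2:**
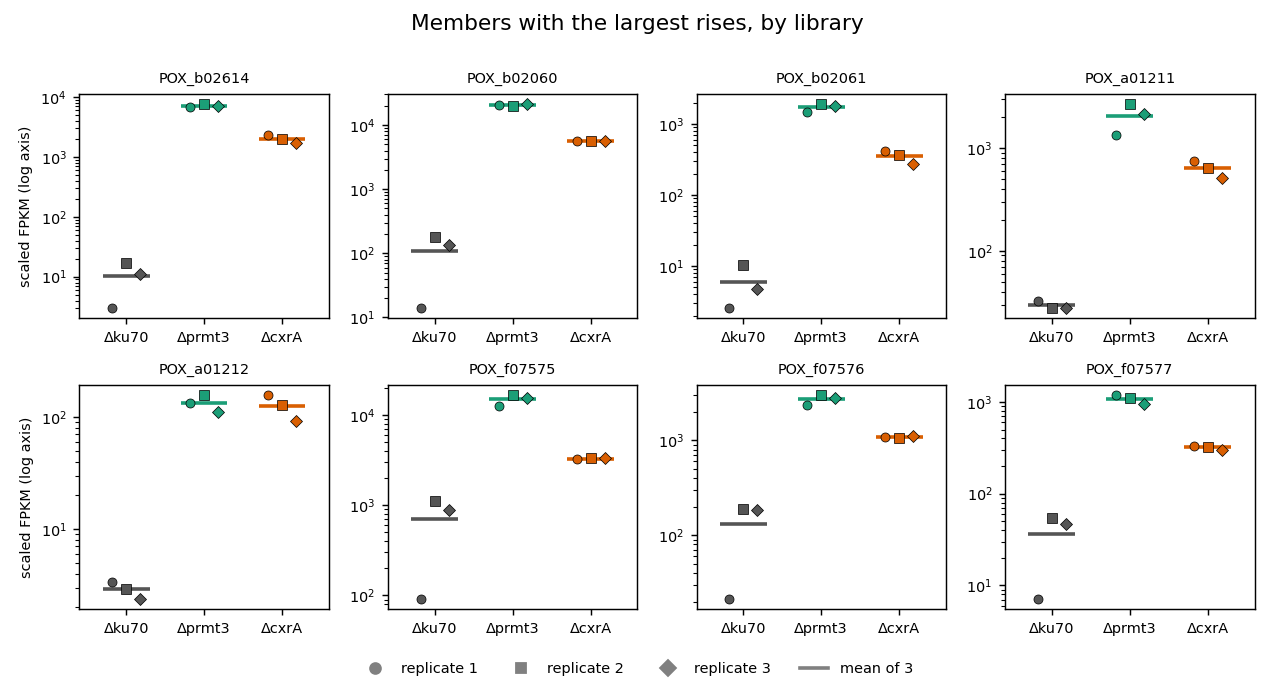
Scaled FPKM (log axis) of 8 members with large rises, in the 3 libraries of each strain. Symbols mark the replicate number and bars the mean of 3, and every mutant library lies above every Δku70 library. Δku70 replicate 1 lies lowest of its strain in POX_b02614, POX_b02060, POX_b02061 and the 3 POX_f0757 genes shown.

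The largest group of adjacent members was formed by 4 hypothetical protein genes in a row, POX_f07574, POX_f07575, POX_f07576 and POX_f07577. POX_f07575 had scaled FPKM of 90.9, 1117 and 889.9 in Δku70, 12597, 16749 and 15399 in Δprmt3, and 3222, 3309 and 3368 in ΔcxrA. POX_f07576 had 21.2, 187 and 185 in Δku70, 2357, 3011 and 2788 in Δprmt3, and 1075, 1048 and 1110.5 in ΔcxrA. POX_f07577 had 7.06, 54.6 and 47.2 in Δku70, 1196, 1117 and 944 in Δprmt3, and 333, 327 and 299.6 in ΔcxrA. In all 3 the strains were separate, with Δprmt3 highest, and Δku70 replicate 1 was lower than the others by several times.

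The ratios of means of these genes were 21.3, 20.7 and 29.9 in Δprmt3 and 4.72, 8.22 and 8.81 in ΔcxrA. Without Δku70 replicate 1 they were 14.9, 14.6 and 21.3 in Δprmt3 and 3.29, 5.80 and 6.28 in ΔcxrA. POX_f07574, at the edge of the row, had smaller ratios, with means of 35.8 ± 10.1 in Δku70, 87.6 ± 5.46 in Δprmt3 and 80.4 ± 5.91 in ΔcxrA (SD, n = 3). Its Δku70 libraries were at 24.1, 41.7 and 41.6, and it was no longer chosen when Δku70 replicate 1 was left out. The genes on either side were not members. POX_f07573 had means of 3.77, 2.46 and 6.86 and POX_f07578 had means of 230.0, 194 and 168 in Δku70, Δprmt3 and ΔcxrA.

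By the gene order of the RefSeq assembly ASM172317v3, 14 of the 85 members (16.5%) lay directly next to another member, whereas 1.56% of the other genes with an FPKM of at least 5 lay next to a member. Counting pairs with 1 gene between them, 16 members fell into 7 runs. Beside those already given, these were POX_b03463 with POX_b03464, POX_c04271 with POX_c04272, and POX_e06421 with POX_e06422. POX_c04271 had means of 5.58, 37.0 and 30.3 scaled FPKM in Δku70, Δprmt3 and ΔcxrA, and POX_c04272 had 31.2, 74.0 and 78.1. The Δku70 libraries of POX_c04271 were at 9.97, 4.14 and 2.64, and without replicate 1 its ratio went from 6.64 to 10.9 in Δprmt3 and from 5.43 to 8.94 in ΔcxrA.

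Of the 149 neighbours tested that are not members themselves, 12 were called higher in Δprmt3 (8.05%, against 2.93% of the other annotated genes) and 31 in ΔcxrA (20.8%, against 13.9%). In both mutants 6 were called higher (4.03%, against 0.647%), among them POX_b02059 and POX_e06420, which stand beside runs and had too low an FPKM to be members. The neighbours were taken beside genes chosen on the same libraries, so these shares carry no test. The medians of their log2 differences were 0.08 in Δprmt3 and 0.30 in ΔcxrA, against 0.01 and 0.00 over the other annotated genes. Calls in the lower direction were not counted for the neighbours, and some neighbours fell steeply in both mutants. The log2 differences were -8.91 in Δprmt3 and -9.86 in ΔcxrA for POX_b02217, and -5.29 and -6.64 for POX_e07175.

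**Figure D3:**
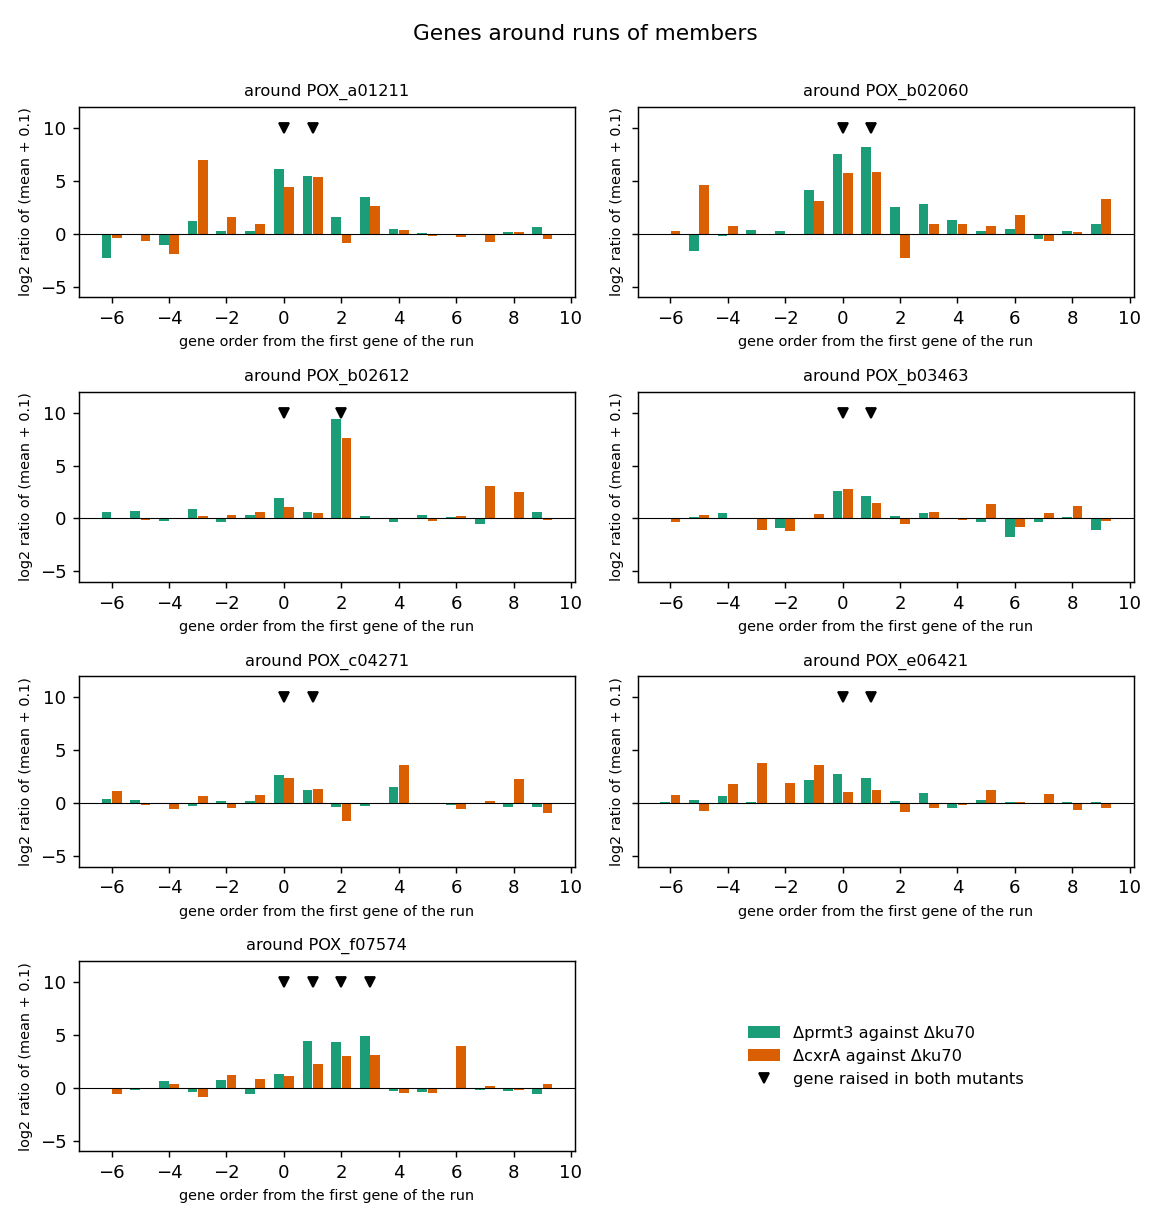
Log2 ratio of mean scaled FPKM, with 0.1 added to each mean, in Δprmt3 and ΔcxrA against Δku70, for 16 genes in order around each of the 7 runs, 1 panel per run. The horizontal axis counts genes from the first member of the run, and triangles mark members. In the panel around POX_f07574 the tallest Δprmt3 bars are those of POX_f07575, POX_f07576 and POX_f07577, and in the panel around POX_b02612 those of POX_b02614.

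POX_e07176, a gene for a hypothetical protein, was listed at 0 in all 3 Δku70 libraries, so no ratio is given. Its scaled FPKM were 38.8, 44.8 and 45.1 in Δprmt3 and 23.2, 22.2 and 22.8 in ΔcxrA. Every mutant library stood well clear of 0, and the values were close among replicates. The adjacent gene POX_e07175 went the other way, with means of 830 in Δku70, 21.0 in Δprmt3 and 8.16 in ΔcxrA. POX_e07177, on the other side, had means of 16.1, 26.5 and 10.8. Whether the assignment of reads between neighbours bears on these values was not tested. Another 4 members, POX_b02962, POX_c04376, POX_c04565 and POX_g08797, were listed at 0 in Δku70 replicate 3 alone, while POX_b02962 was listed at 0.441 and 10.3 in the other Δku70 libraries. A value of 0 in a table of FPKM can be a failed estimate, and these 4 are better read library by library than from their means. Beside POX_c04376, POX_c04377 had means of 445 in Δku70, 58.7 in Δprmt3 and 7.41 in ΔcxrA. Beside POX_c04565, POX_c04564 had means of 104, 28.0 and 6.19. The neighbours of POX_b02962 had no such fall, with means of 91.4, 106 and 271 for POX_b02961 and 112, 108 and 119 for POX_b02963. The ratio of POX_g08797 in Δprmt3, for example, was 1.34 without Δku70 replicate 3.

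Of the 7 members with an annotated function, 6 have annotation terms placed here with enzymes of pectin or arabinan, polymers of plant cell walls. The annotation lists hold 0 tested genes with cytochrome P450 terms and 0 with terms for secondary metabolite enzymes. Which functions appear among the members therefore depends on what the lists name, and hypothetical protein is only the label given there. The most highly expressed of them was the polygalacturonase gene POX_d04874, whose product cuts the galacturonic acid backbone of pectin. Its scaled FPKM were 35.8, 39.9 and 74.6 in Δku70, 254, 352 and 345 in Δprmt3, and 354, 369 and 384 in ΔcxrA. Both mutants lay above Δku70, by 6.33 times in Δprmt3 and 7.37 times in ΔcxrA.

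Another polygalacturonase gene, POX_b03463, was expressed at a lower level, with 1.31, 1.19 and 1.71 scaled FPKM in Δku70, 8.41, 10.8 and 7.35 in Δprmt3, and 12.1, 11.2 and 8.41 in ΔcxrA. Its ratios were near those of POX_d04874, at 6.31 and 7.53. The pectate lyase gene POX_h09413, whose product cleaves the same backbone by elimination, had 10.2, 10.0 and 8.55 in Δku70, 35.4, 120.4 and 65.5 in Δprmt3, and 35.6, 29.3 and 27.5 in ΔcxrA. Here the Δprmt3 libraries were widely spread, and the lowest of them was level with the highest of ΔcxrA.

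The pectinesterase gene POX_g08964, for an enzyme that removes methyl groups from pectin, had 11.2, 14.1 and 13.8 scaled FPKM in Δku70, 27.6, 54.8 and 34.4 in Δprmt3, and 31.0, 25.6 and 23.1 in ΔcxrA. The alpha-L-arabinofuranosidase gene POX_a00012 was placed with arabinan by its name, and its annotation gives no substrate. It had means of 6.01 ± 0.815 in Δku70, 21.9 ± 8.99 in Δprmt3 and 14.8 ± 1.72 in ΔcxrA (SD, n = 3). The exo-alpha-L-1,5-arabinanase gene POX_a00656 had means of 5.98 ± 0.586, 16.9 ± 5.42 and 14.3 ± 1.85 (SD, n = 3). In all 3 genes both mutants lay above Δku70 and overlapped with each other. POX_g08964 was no longer chosen when Δku70 replicate 1 or ΔcxrA replicate 1 was left out. Within Δprmt3, replicate 2 was the highest library for all 6 enzyme genes and replicate 1 the lowest for 5 of them.

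**Figure D4:**
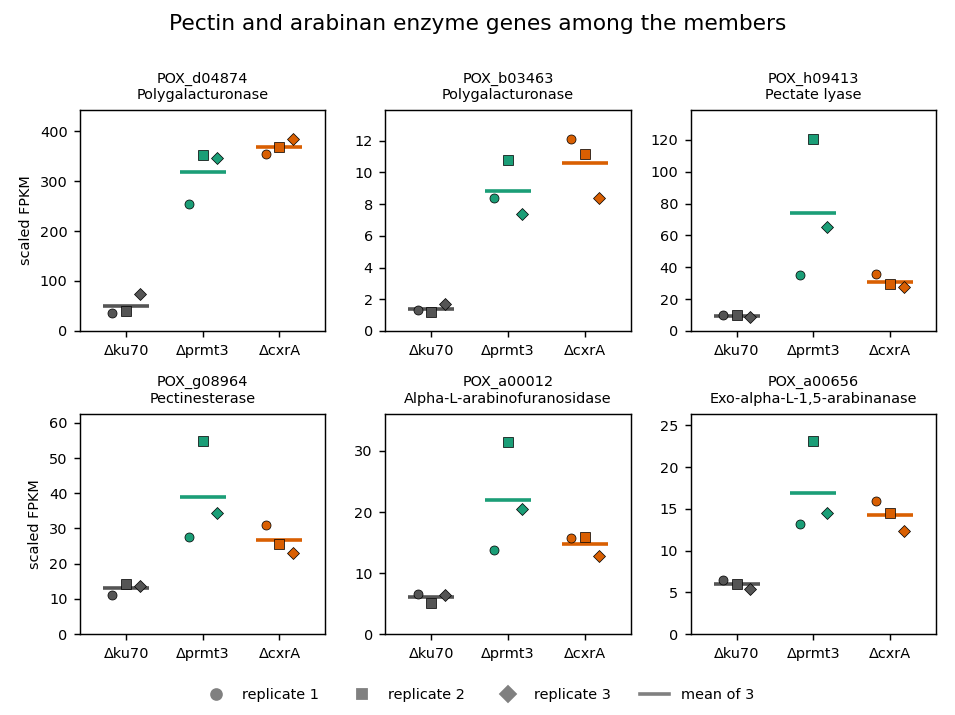
Scaled FPKM (linear axis from 0) of the 6 members with annotation terms placed with pectin or arabinan enzymes, in the 3 libraries of each strain. Symbols mark the replicate number and bars the mean of 3. All mutant libraries lie above all Δku70 libraries, and the 3 Δprmt3 libraries spread most in POX_h09413, from 35.4 to 120.4.

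The annotation lists hold 87 tested genes for enzymes that act on plant polysaccharides, and 6 are members. They are lists of genes that the study called on these same libraries, so counts over them are not independent evidence. Of the 87, 33 were called higher and 11 lower in Δprmt3, and 14 higher and 55 lower in ΔcxrA, with medians of the log2 difference of 0.74 and -1.37 against 0.00 and 0.06 over all features. In both mutants 8 were called higher, all of which fall among the 32 genes with pectin or arabinan terms, a subset set apart after the values were seen. Of these 32, 20 were called higher and 6 lower in Δprmt3, and 10 higher and 11 lower in ΔcxrA. The 2 genes called higher in both that are not members had too low an FPKM. They are the rhamnogalacturonan endolyase gene POX_c03480, with means of 0.925, 2.21 and 6.78 scaled FPKM in Δku70, Δprmt3 and ΔcxrA, and the rhamnogalacturonan acetylesterase gene POX_e07312, with 0.653, 8.76 and 4.89.

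The genes listed for cellulose and xylan degradation, a list that does not hold POX_a00012, included no member. Members labelled hypothetical protein or without an entry could not be assigned to this or any other class. Of the 42 tested, also a subset set apart after the values were seen, 10 were called higher and 4 lower in Δprmt3, and 2 higher and 36 lower in ΔcxrA. The 41 listed sugar transporter genes had no member either, with 13 called higher and 13 lower in Δprmt3, and 8 higher and 21 lower in ΔcxrA. Of the 135 listed transcription factor genes, 13 were called higher and 20 lower in Δprmt3, and 57 higher and 68 lower in ΔcxrA. Since the lists hold genes that the study called on these libraries, such counts are largely fixed by the listing. Over all 10578 features, 1174 were called in either direction in Δprmt3 and 3137 in ΔcxrA. Among the annotated genes that are not members, 0.647% were called higher in both. Of the listed transcription factor genes, 5 were called higher in both mutants and 17 lower, and 1 is a member, the bZIP gene POX_e06603. Factors of this class bind DNA as dimers through a basic leucine zipper.

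POX_e06603 had scaled FPKM of 3.17, 4.05 and 5.51 in Δku70, 28.8, 6.97 and 9.52 in Δprmt3, and 12.1, 11.0 and 10.4 in ΔcxrA. The ΔcxrA libraries were close together and clear of Δku70, while Δprmt3 rested on replicate 1. The ratio of means in Δprmt3 was 3.56, and 1.94 without that replicate, which is below the threshold for members.

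The choice of members set a floor for each mutant but no order between them, so the mutants were also compared directly. The limma fit used all 9 libraries, and p-values were adjusted over all 10578 features. Of the 85 members, 19 (22.4%) were higher in ΔcxrA than in Δprmt3, 12 (14.1%) were lower and 54 were not called. Over all features 17.6% were called higher in ΔcxrA and 12.2% lower. Over the annotated genes with an FPKM of at least 5 in all mutant libraries, which are the genes that could have been members, the shares were 7.70% and 13.9%. The median log2 difference was 0.09 over the members and -0.13 over those genes. In 30 of the 31 called members the libraries of the mutants did not overlap, the exception being POX_h09413. The same share over all called features was not taken, and a call itself favours genes without overlap. Nothing is read from this count.

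This split depended on the scaling. On FPKM as deposited, which shifts the median feature by 0.57 on the log2 scale toward ΔcxrA, 30 members were called higher in ΔcxrA and 4 lower, and under quantile normalization 21 and 8. A direction between the mutants is therefore relative to the bulk of genes.

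The members higher in ΔcxrA had smaller ratios in Δprmt3, with a median of 2.42 there and 8.19 in ΔcxrA. Both ratios are taken to the same Δku70 mean, so this order follows from the call. None of them lay in a run. The largest difference was that of POX_g09359, a hypothetical protein, with scaled FPKM of 28.5, 31.0 and 28.1 in Δku70, 144, 130.3 and 143 in Δprmt3, and 2009, 2146 and 2466 in ΔcxrA. The 3 strains formed 3 separate levels with little spread. Its log2 difference between the mutants was 3.98 (standard error 0.09, Benjamini-Hochberg adjusted p = 7.28e-08 from limma).

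The next largest were also hypothetical proteins. POX_b03380 had 1.92, 3.02 and 1.97 scaled FPKM in Δku70, 8.40, 7.39 and 7.25 in Δprmt3, and 56.7, 50.9 and 44.1 in ΔcxrA, a log2 difference of 2.70 (standard error 0.19, adjusted p = 7.83e-06 from limma). POX_c03729 had 10.8, 9.90 and 7.79 in Δku70, 20.3, 25.7 and 24.0 in Δprmt3, and 151, 152 and 139 in ΔcxrA, a log2 difference of 2.66 (standard error 0.14, adjusted p = 1.71e-06 from limma). Both had separate levels in the 3 strains. POX_h09684 and POX_g08764 followed, with log2 differences of 2.33 and 1.99.

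At the lower end of the 19, POX_g09001 had the highest level of any member in ΔcxrA. Its scaled FPKM were 1790.3, 1858 and 1527 in Δku70, 3219.6, 4631 and 4422 in Δprmt3, and 7396, 8062 and 8952 in ΔcxrA. The strains were separate, and its log2 difference of 1.01 (standard error 0.19, adjusted p = 0.00175 from limma) stood just past the threshold of 1. It fell below 1 without Δprmt3 replicate 1 or without ΔcxrA replicate 3, with a lowest value of 0.84. POX_b03276 had means of 231 ± 20.4, 584 ± 93.1 and 1513 ± 143 (SD, n = 3) in Δku70, Δprmt3 and ΔcxrA, with a log2 difference of 1.38.

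The 12 members lower in ΔcxrA than in Δprmt3 had the larger ratios in Δprmt3, with a median of 7.85 there and 2.80 in ΔcxrA, an order that again follows from the call. Of these 12, 7 lay in runs. POX_b02061 had the largest difference, -2.31 on the log2 scale (standard error 0.43, adjusted p = 0.00163 by limma). POX_b02614 had a log2 difference of -1.86 (standard error 0.52, adjusted p = 0.0137 by limma) and POX_a01211 one of -1.66 (standard error 0.25, adjusted p = 0.000521 by limma). POX_b02614 lost its call on FPKM as deposited and under quantile normalization, with an adjusted p from limma of up to 0.186 and a log2 difference as small as -0.84. For these 3 genes, whose values by library are given above, every Δprmt3 library lay above every ΔcxrA library.

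The pair POX_e06421 and POX_e06422 moved together. POX_e06421 had scaled FPKM of 33.8, 25.0 and 19.6 in Δku70, 198, 185 and 159 in Δprmt3, and 45.7, 50.1 and 69.7 in ΔcxrA. POX_e06422 had 21.7, 18.2 and 7.47 in Δku70, 91.6, 73.9 and 85.5 in Δprmt3, and 30.6, 35.8 and 46.7 in ΔcxrA. In both genes Δprmt3 stood above ΔcxrA and ΔcxrA above Δku70 with no overlap. Neither gene was chosen when Δku70 replicate 3 was left out, where the ratio of POX_e06422 in ΔcxrA was 1.89. POX_e06421 was also not chosen without ΔcxrA replicate 3. The log2 differences of the pair between the mutants were -1.73 (standard error 0.22, adjusted p = 0.0002 from limma) and -1.16 (standard error 0.36, adjusted p = 0.021 from limma). POX_e06422 lost its call under 5 of 14 alternatives (FPKM as deposited, or without ΔcxrA replicate 1 or 2 or Δprmt3 replicate 1 or 3), with a log2 difference as small as -0.59 and an adjusted p from limma of up to 0.164.

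POX_f07410, a member by a narrow margin, had 2.64, 4.18 and 2.00 scaled FPKM in Δku70, 15.0, 30.2 and 25.4 in Δprmt3, and 5.31, 5.64 and 7.83 in ΔcxrA. Its ratio in ΔcxrA was 2.13 and its log2 difference between the mutants -1.86 (standard error 0.33, adjusted p = 0.00144 from limma). The pectate lyase gene POX_h09413 was called lower in ΔcxrA at -1.09 (standard error 0.37, adjusted p = 0.031 from limma), but it lost the call under 7 of 14 alternatives, and its adjusted p then ranged up to 0.233.

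The low values of Δku70 replicate 1 entered the direct comparison through the spread that limma shares over the strains. POX_f07575 and POX_f07577 had log2 differences of -2.17 and -1.76 with adjusted p-values of 0.0453 and 0.0459 from limma, close to the threshold. POX_b02060 and POX_f07576 had log2 differences of -1.86 (adjusted p = 0.0762 from limma) and -1.33 (adjusted p = 0.146 from limma) and were not called. Without Δku70 replicate 1 the differences were the same and the adjusted p from limma was 6.34e-05 for both uncalled genes, 6.09e-05 for POX_f07575 and 1.65e-05 for POX_f07577. With only the 6 mutant libraries in the fit, an alternative chosen after seeing the data for these single genes, all 4 were called as well. On FPKM as deposited all 4 were uncalled, with adjusted p from limma between 0.108 and 0.375. The log2 differences were then -1.29 for POX_b02060, -1.595 for POX_f07575, -0.76 for POX_f07576 and -1.19 for POX_f07577. The calls of these genes therefore depended on the scaling as well as on Δku70 replicate 1, and the sizes of the differences on the scaling.

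Of the 54 members not called between the mutants, 10 had an adjusted p under 0.05 with an absolute log2 difference of at most 1, and 44 had an adjusted p of at least 0.05. A p above the threshold does not show that a gene stood at the same level in both mutants. The 95% interval of the log2 difference lay wholly between -1 and 1 for 22 of the 54 and reached beyond for 32. POX_e07176, for example, had a log2 difference of -0.91 with an interval from -1.23 to -0.59.

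The closest levels in the mutants were those of POX_c04774, POX_c04376, POX_b03363 and POX_a01234, named because their difference between the mutants was small. POX_c04774 had 2.09, 2.24 and 2.99 scaled FPKM in Δku70, 11.8, 10.0 and 8.78 in Δprmt3, and 11.1, 9.89 and 8.63 in ΔcxrA. POX_b03363 had 79.7, 93.3 and 59.5 in Δku70, 273, 253 and 324 in Δprmt3, and 292, 263 and 255 in ΔcxrA. Both genes overlapped fully between the mutants and were clear of Δku70. Their intervals for the log2 difference ran from -0.48 to 0.39 and from -0.44 to 0.31. Over the 14 alternatives the differences themselves ran from -0.16 to 0.52 and from -0.15 to 0.51. How alike the levels of POX_c04774 and POX_b03363 were thus depended on the processing. The interval of POX_c04376, one of the genes listed at 0 in Δku70 replicate 3, ran from -3.26 to 3.37, and that of POX_a01234 from -0.99 to 1.15, so neither shows that the levels were alike. The Δprmt3 libraries of POX_a01234 were at 483, 105 and 233, and its ratio there fell from 3.70 to 2.29 without replicate 1.

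Replicates varied more in the members than in other genes. The members were chosen on means of these same libraries, so 1 high mutant library or 1 low Δku70 library helps a gene to be chosen. Their median level in Δku70 was also lower, at 15.4 against 44.2 scaled FPKM. The contrasts given here are therefore a description. The median coefficient of variation over the 3 libraries was 0.197 in Δku70, 0.163 in Δprmt3 and 0.116 in ΔcxrA, against 0.0927, 0.102 and 0.0690 over the genes with an FPKM of at least 5 in the mutants. In Δprmt3, replicate 1 was over 2 times the higher of the other replicates for 9 members (10.6%, against 1.05% of those genes). These were POX_a00727, POX_a00946, POX_a01234, POX_b02749, POX_b02962, POX_d04882, POX_e06603, POX_g08958 and POX_g09015.

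For several of these genes, replicate 1 alone made them members. POX_b02749 had 48.8, 64.7 and 60.6 scaled FPKM in Δku70, 495, 21.1 and 35.5 in Δprmt3, and 319, 294 and 309 in ΔcxrA. Its other Δprmt3 libraries lay below Δku70, and without replicate 1 the ratio of means in Δprmt3 fell from 3.17 to 0.487. POX_a00727 had 166, 198 and 165 in Δku70, 874, 133 and 217 in Δprmt3, and 384, 383 and 346 in ΔcxrA, and its ratio in Δprmt3 without replicate 1 was 0.991. POX_a00946 and POX_g08958 had ratios of 1.18 and 1.34 without it. In ΔcxrA all 3 libraries of these genes stood close together and above Δku70. When Δprmt3 replicate 1 was left out and the choice repeated, 6 of the 9 were no longer chosen and 3 were.

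**Figure D5:**
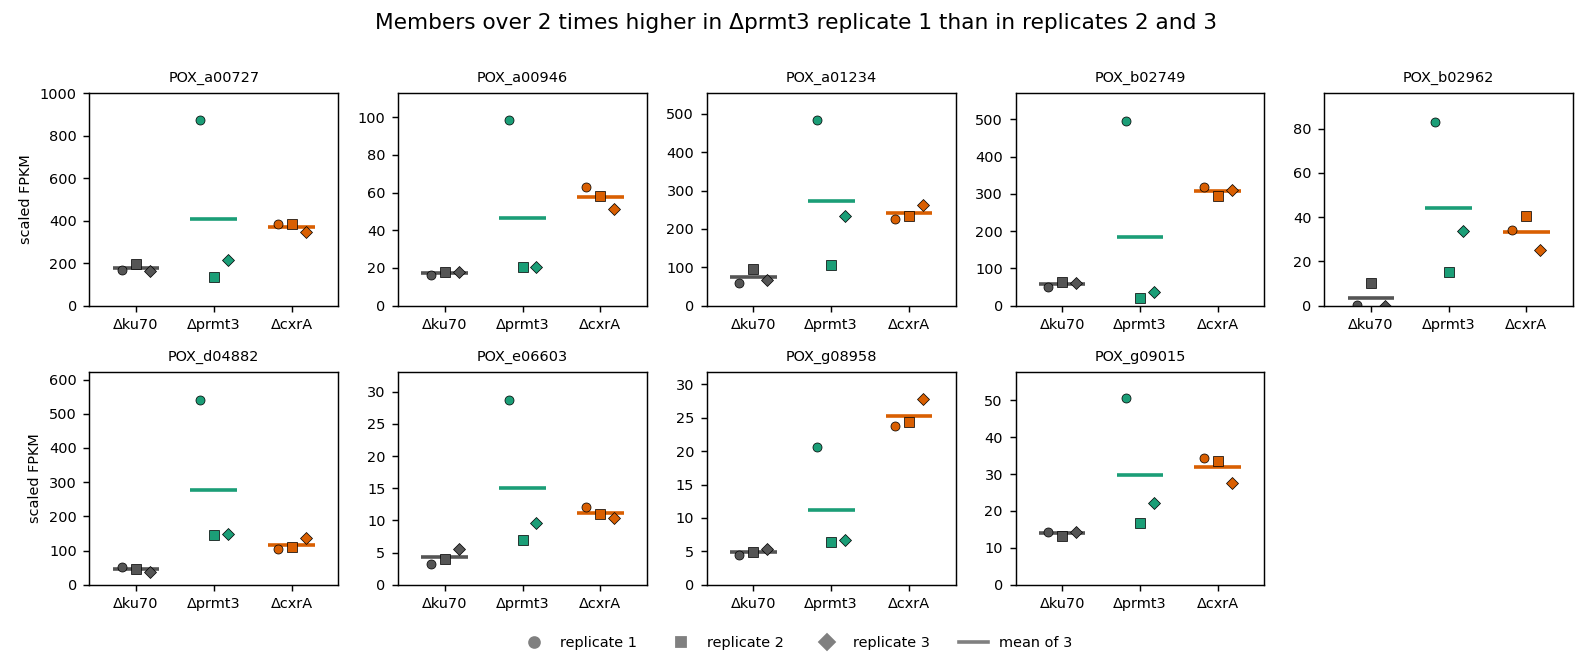
Scaled FPKM (linear axis from 0) of the 9 members for which Δprmt3 replicate 1 is over 2 times the other Δprmt3 replicates. Symbols mark the replicate number and bars the mean of 3. In POX_b02749 both other Δprmt3 replicates, at 21.1 and 35.5, lie below the Δku70 range of 48.8 to 64.7, and in POX_a00727 replicate 2, at 133, lies below Δku70 and replicate 3, at 217, above it.

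In Δku70, replicate 1 was more than 2 times below the lower of the other replicates for 5 members, POX_b02060, POX_b02614, POX_f07575, POX_f07576 and POX_f07577 (5.88%, against 0.156% of the genes with an FPKM of at least 5). Replicate 3 was so for 8 members (9.41%, against 0.908%), 4 of them the genes listed at 0 there. A low Δku70 library helps a gene to be chosen, so these shares too are a description. Choosing the genes again with each library left out in turn gave 79 to 104 genes, and 56 of the 85 members were chosen whichever library was left out. Leaving out Δprmt3 replicate 1 or Δku70 replicate 3 lost 14 members each, and leaving out ΔcxrA replicate 2 lost 0.

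The members were somewhat shorter than other genes, with a median length of 1325 bases against 1520 in the RefSeq annotation, and 36.5% against 24.5% were under 1000 bases. Of the 85, 9 (10.6%) lay within 50 genes of a chromosome end, against 7.0% of the genes with an FPKM of at least 5.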

How the data were processed

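Total RNA of mycelium was sequenced in 9 libraries, 3 for each of 3 strains. The authors cleaned the reads with SOAPnuke 2.1.0, mapped them with HISAT2 2.2.1, quantified them with RSEM 1.3.3 and Bowtie2 2.3.5, and deposited FPKM, 1 table per library. The genome build and strandedness are not given in the sources used here. Read counts were not used here, so depth is unknown and no counting error is given. Groups and replicate numbers came from the sample labels.

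Each library's FPKM were divided by a median-of-ratios factor, taken over the 9335 features above 0 in every library. Features at 0 in all libraries (504 of 11082) were left out. The values log2(scaled FPKM + 0.1) of 10578 features were fitted with limma 3.58.1 under R 4.3.3, using lmFit and a trended eBayes, 1 mean per strain and Benjamini-Hochberg adjustment over all features of a comparison. The fit was checked on simulated data. Differences on this scale understate those of genes with low FPKM. Ratios are of mean scaled FPKM. Python 3.11.15, pandas 2.3.3 and numpy 2.4.6 served for the other tables. Gene order and lengths came from RefSeq assembly ASM172317v3, in which 9718 annotated identifiers were found. Annotation terms came from the lists the study supplies, 1 of which was held here only in part. Promoters, proteins and sequences were not analysed here.

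The members and the gene lists were chosen with earlier results of these data known. Genes named by rule were the 8 members with the highest mean in the mutants, the 8 with the largest smaller ratio, those at 0 in all Δku70 libraries, the 5 with the largest called difference between the mutants in each direction, those in the annotation lists or in runs, the 3 nearest each side of the ratio threshold and the 4 most alike in both mutants. All other genes, such as neighbours and members with a library far from the others, were chosen after their values were seen. Alternatives were FPKM as deposited, quantile normalization, a pseudocount of 1 or 0.01, other FPKM minimums and ratios, strain medians in place of means, fits of the 6 libraries compared, a replicate block, and fits without each library in turn. The replicate numbers did not pair the samples.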

Additional observations from a re-analysis of the deposited data

Results flagged for a closer look

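Among the loci that carry no annotated gene identifier, which the choice of members does not consider, 4 passed the same thresholds in both mutants. They are 3.64% of the 110 such loci with an FPKM of at least 5 in all mutant libraries, against 1.21% of the annotated genes. The highest of them had scaled FPKM of 0.588, 7.89 and 7.56 in Δku70, 817, 842 and 836 in Δprmt3, and 265, 257 and 176 in ΔcxrA, with Δku70 replicate 1 far below the others. The other 3 had means of 1.23, 2.21 and 5.59 in Δku70, 28.7, 18.4 and 13.0 in Δprmt3, and 11.4, 11.5 and 24.2 in ΔcxrA. Their positions were not analysed here.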

How the results depend on the processing

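The number of members depended mainly on the thresholds. It was 258 with a ratio of at least 1.5, 34 with a ratio of at least 3, and 129 with an FPKM minimum of 1. With a minimum of 10 it was 66, on FPKM as deposited 101 (71 of the 85 among them), under quantile normalization 108 (84 among them) and with strain medians 84 (70 among them). With the minimum set on scaled FPKM, chosen after seeing the data, it was 90. Leaving out each library in turn gave 79 to 104.

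Calls of members between the mutants numbered 31, and 26 to 33 with 1 library left out, of which 18 to 22 were higher in ΔcxrA and 8 to 14 lower. On FPKM as deposited 30 were higher and 4 lower. Over all features, Δprmt3 had 1174 calls against Δku70 (1091 to 1178 with 1 library left out) and ΔcxrA 3137 (2928 to 3153). With the replicate number as a block the counts were 30, 1114 and 3117, and the numbers do not pair the samples, since correlations of the deviations of same-numbered libraries lay between -0.07 and 0.05. Of 546 values of named members between the mutants under the alternatives, 503 stayed on their side of the threshold, 36 lost and 7 gained a call, and 0 changed sign while called. POX_f07577 lost its call under 9 of 14 alternatives and POX_f07575 under 8. The causes were not tested. Without read counts, precision rests on 3 replicates per strain.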
